A study of Mus musculus with 24 samples.

Results

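Gene expression was compared between 3 knockout (KO) libraries labelled MPP2 and 3 KO libraries labelled MPP1, across all genes of a mouse RNA sequencing study. MPP stands for multipotent progenitor. The 6 libraries were chosen by their genotype and population labels alone and are part of 24, in which KO and wild-type (WT) genotypes each have 3 libraries of HSC (haematopoietic stem cells), MPP1, MPP2 and MPP4. All cells were sorted from bone marrow, although the tissue field reads blood, and all groups, controls included, carry tamoxifen as treatment. Both KO groups carry the cell subset MPP, and their titles alone separate MPP2 from MPP1; the WT MPP2 and WT MPP1 groups are used below as the matching pair of the other genotype. The labels name neither the deleted gene nor a Cre driver, and give no strain, sex or age. Whether a group's 3 libraries stem from different mice is not stated, so the p-values cover only the spread among libraries, and that spread may be technical.

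Multipotent progenitors descend from haematopoietic stem cells and feed the myeloid, erythroid, megakaryocytic and lymphoid lineages. They lose stem cell transcription factors and enter the cell cycle as they differentiate, and many start to transcribe lineage genes at a low level, a state known as priming. By convention, MPP1 cells carry CD34 and CD150 and lack CD48 and Flt3, MPP2 cells carry CD150 and CD48 and lack Flt3, and MPP4 cells carry Flt3 and CD48 and lack CD150. The study's title concerns P-bodies, cytoplasmic granules in which messenger RNAs are held untranslated with the help of the RNA helicase Ddx6.

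Total counts per library were 2894916 to 3523747 in KO MPP2 and 3095384 to 3584413 in KO MPP1. Levels are given as CPM, the count relative to the scaled library total, and fold changes are log2 values of KO MPP2 over KO MPP1, so a positive value means higher in KO MPP2. Calls rest on edgeR's quasi-likelihood test, with p-values adjusted by the Benjamini-Hochberg method over the 21964 genes tested and a threshold of 0.05. Olfactory and vomeronasal receptor genes, which blood cells are not known to use, nevertheless had counts in every library. Scaled by gene span, these counts put the share of a library expected from an even background over genes at 9.31 ± 0.706% in KO MPP2 and 13.8 ± 0.288% in KO MPP1 (SD, n = 3 each). The groups did not overlap (exact two-sided permutation p = 0.1, the smallest that 3 against 3 libraries allow). Of the 123 named genes called, 20 lost their call once this background was subtracted, and the part of the background in the results was not tested further. Subtraction also shifted genes with little background. The glycolytic gene Gapdh went from log2 0.86 to 0.68, with an expected background of 0.0606% of its counts in KO MPP2 and 0.147% in KO MPP1. A call lost on subtraction is therefore not read as a call made by background. The strand setting of the counting is not given, so reads of overlapping and antisense genes cannot be told apart.

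Ddx6, taken here as the deleted gene from general knowledge of the study and not from the labels, did not tell the groups apart. It measured 100.9, 94.7 and 96.0 CPM in KO MPP2 and 99.9, 88.4 and 79.8 CPM in KO MPP1, with overlapping ranges (log2 0.12 ± 0.18 SE, edgeR adjusted p = 0.728). In WT libraries it averaged 90.0 ± 11.3 CPM in MPP2 and 58.7 ± 13.1 CPM in MPP1, so its mean was not lower in KO than in WT in either population. Gene counts include reads from outside any deleted exon, so this level does not check the genotype, and the KO labels are used as given.

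The promoters of 4 genes are shown because Mpo, Elane and Ctsg were called higher in KO MPP2 with large folds and Hlf was called lower. The 300 bases from 250 before to 50 after each start are shown 5′ to 3′ from RefSeq on build GRCm38.p6, and capitals mark matches to any of the 5 motifs described after them. Mpo lies on the plus strand at chr11:87793534-87793833, Elane on the plus strand at chr10:79886062-79886361, Ctsg on the minus strand at chr14:56102525-56102824 and Hlf on the minus strand at chr11:90390868-90391167.
Mpo: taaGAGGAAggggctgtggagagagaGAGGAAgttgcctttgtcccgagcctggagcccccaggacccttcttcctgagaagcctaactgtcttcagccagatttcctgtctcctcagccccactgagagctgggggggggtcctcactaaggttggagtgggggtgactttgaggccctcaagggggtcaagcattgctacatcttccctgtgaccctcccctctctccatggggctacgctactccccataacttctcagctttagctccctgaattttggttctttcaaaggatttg
Elane: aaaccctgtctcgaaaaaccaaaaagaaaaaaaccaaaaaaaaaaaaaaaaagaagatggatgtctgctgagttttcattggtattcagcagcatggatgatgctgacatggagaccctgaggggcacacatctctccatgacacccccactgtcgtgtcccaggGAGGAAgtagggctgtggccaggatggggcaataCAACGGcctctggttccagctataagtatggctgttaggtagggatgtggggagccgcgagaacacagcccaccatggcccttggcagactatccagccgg
Ctsg: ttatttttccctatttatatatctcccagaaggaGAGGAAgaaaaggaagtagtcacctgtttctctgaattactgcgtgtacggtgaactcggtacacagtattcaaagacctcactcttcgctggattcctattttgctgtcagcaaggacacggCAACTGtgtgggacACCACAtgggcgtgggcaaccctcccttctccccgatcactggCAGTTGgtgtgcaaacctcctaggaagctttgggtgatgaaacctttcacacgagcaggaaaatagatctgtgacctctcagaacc
Hlf: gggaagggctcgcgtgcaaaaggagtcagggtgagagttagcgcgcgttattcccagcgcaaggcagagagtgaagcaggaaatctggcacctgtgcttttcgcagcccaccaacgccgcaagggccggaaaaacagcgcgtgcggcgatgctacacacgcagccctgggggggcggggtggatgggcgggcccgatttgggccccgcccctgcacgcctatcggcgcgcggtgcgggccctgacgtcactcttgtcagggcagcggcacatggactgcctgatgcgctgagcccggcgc

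Each motif was searched on both strands, and its share is given over all 32851 promoters in the table. The Ets type bound by Spi1, spelled GAGGAA and held by 28.3% of promoters, was present 2 times in the Mpo window, 1 time in that of Elane and 1 time in that of Ctsg. The Runx type, spelled TGTGGT and held by 16.8% of promoters, was present 1 time in the Ctsg window and in none of the other windows. The Myb type, spelled CAACNG and held by 35% of promoters, was present 2 times in the Ctsg window and 1 time in that of Elane. The C/EBP type, spelled TTNNGCAA and held by 10.8% of promoters, was in none of the 4 windows. The same was true of the Gata type, spelled AGATAA and held by 11.2% of promoters, and the Hlf window held none of the 5 motifs. These are matches of letters, and binding was not measured.

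Marker RNA did not follow the conventional sort in every respect. Mpo, the peroxidase of neutrophil granules, had 1584, 1603 and 1536 CPM in KO MPP2 and 5.01, 6.03 and 4.38 CPM in KO MPP1. It was the clearest difference among the named markers (log2 8.24 ± 0.18 SE, edgeR adjusted p = 4.67e-33). Ighm, the constant part of the IgM heavy chain, had 8630.2, 8155 and 8313 CPM in KO MPP2 and 208, 243 and 224 CPM in KO MPP1 (log2 5.22 ± 0.13 SE, edgeR adjusted p = 1.69e-31). For both genes every KO MPP2 library lay far above every KO MPP1 library.

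Cd48, which by convention separates the 2 populations, was higher in KO MPP2, at 58.0 ± 6.49 CPM against 6.24 ± 1.98 CPM in KO MPP1 (SD, n = 3 each; log2 3.21 ± 0.34 SE, edgeR adjusted p = 1.61e-09). Cd34 was higher as well, at 205 ± 28.6 CPM in KO MPP2 and 87.0 ± 8.52 CPM in KO MPP1 (log2 1.24 ± 0.19 SE). Slamf1, which encodes CD150, had 10.9, 1.61 and 1.87 CPM in KO MPP2 and 7.69, 3.16 and 3.22 CPM in KO MPP1, and the groups overlapped (edgeR adjusted p = 0.996). Background was expected to give 61.0% of the Slamf1 counts in KO MPP2 and 81.8% in KO MPP1, whereas Slamf1 stood at 87.5 ± 20.6 CPM in KO MPP4 and 252 ± 31.1 CPM in KO HSC.

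Flt3, the cytokine receptor that marks MPP4, had 625, 525 and 481 CPM in KO MPP2 and 582, 548 and 603 CPM in KO MPP1. These ranges overlapped (log2 -0.09 ± 0.11 SE, edgeR adjusted p = 0.663), and KO MPP4 libraries had 84.5 ± 8.12 CPM. Low Slamf1 and high Flt3 RNA therefore went against the conventional MPP2 profile, and against that of MPP1 too, although RNA need not follow the surface protein used to sort. The libraries are called by their labels here, and no other cell type name is given to them. The remaining sort markers showed Kit, the stem cell factor receptor, lower in KO MPP2 (644 ± 59.95 CPM against 875 ± 37.2 CPM in KO MPP1, log2 -0.44 ± 0.08 SE, edgeR adjusted p = 3.55e-05). Procr, a stem cell surface receptor, was lower too (2.75 ± 1.67 CPM in KO MPP2, 22.2 ± 6.23 CPM in KO MPP1, log2 -2.995 ± 0.45 SE). Ly6a, which encodes Sca-1, did not pass the test (116 ± 1.65 CPM in KO MPP2, 95.9 ± 8.68 CPM in KO MPP1, edgeR adjusted p = 0.468).

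Il1rl1, a cytokine receptor gene of mast cells and innate lymphoid cells, had 287, 332 and 331 CPM in KO MPP2 and 185, 189 and 174 CPM in KO MPP1 (log2 0.79 ± 0.20 SE, edgeR adjusted p = 0.00426). The groups did not overlap, but with background subtracted the call was lost (log2 0.63, edgeR adjusted p = 0.34). Background was expected to give only 0.919% of the Il1rl1 counts in KO MPP2 and 2.14% in KO MPP1. In WT the direction was the other one, with 20.6 ± 4.26 CPM in MPP2 and 32.9 ± 8.05 CPM in MPP1.

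**Figure D1:**
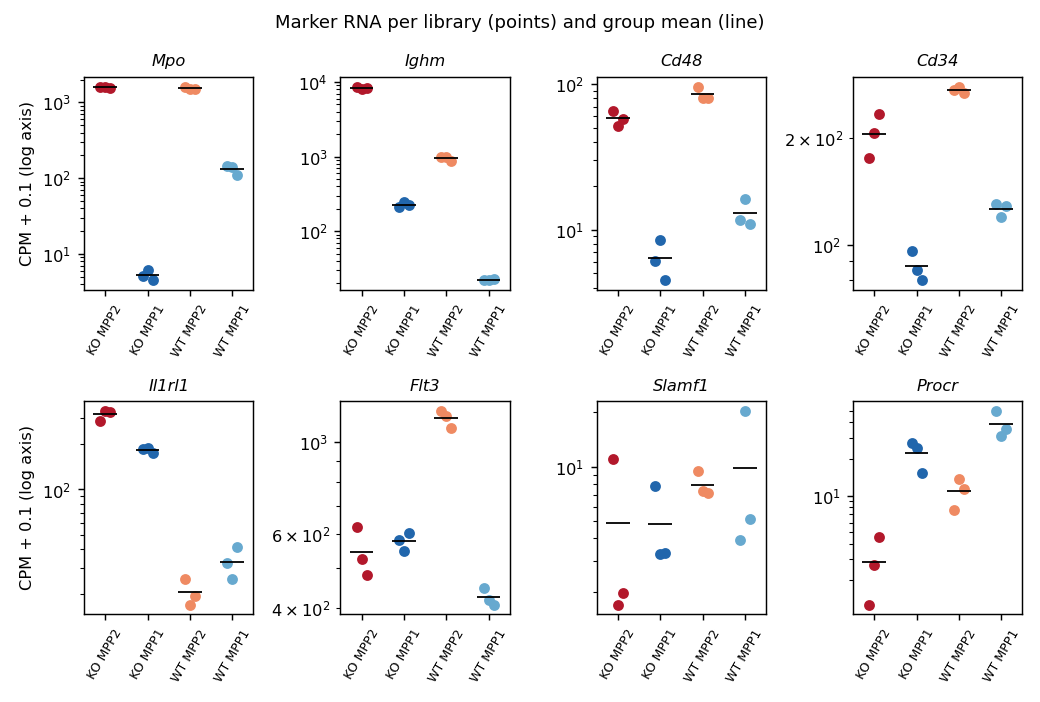
CPM plus 0.1 on a log axis for 8 marker genes in KO MPP2, KO MPP1, WT MPP2 and WT MPP1. Points are single libraries and lines group means of 3. Mpo and Ighm separate KO MPP2 from KO MPP1, Flt3 and Slamf1 do not, and Mpo is at 5.01, 6.03 and 4.38 CPM in KO MPP1.

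Over all genes tested, 1504 were higher in KO MPP2 (6.85%) and 1279 were lower (5.82%). The median log2 fold change of all genes was -0.0753. The balance of rises and falls depended on scaling and on low counts. Rises were 54.0% of the calls as fitted, 42.6% with upper-quartile scaling (1149 rises, 1550 falls), 65.2% with limma-voom (1480 and 790) and 41.2% among genes averaging at least 20 CPM (947 rises, 11.8% of the genes tested there, and 1354 falls, 16.8%). With background subtracted, 662 of 18924 genes were higher (3.5%) and 687 were lower (3.63%). The libraries of the groups did not overlap at 13.4% of genes with KO MPP2 higher and at a further 13.4% with KO MPP2 lower.

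The 12 largest rises were all immunoglobulin variable (V) segments, and the granulocyte, replication and mitosis lists also had shares of rises far above that of all genes. The largest falls held several genes near the background, beside the well expressed Lhcgr and Trpc6. Stem cell transcription factors, stem cell surface genes and megakaryocyte genes were the lists with the highest shares of falls. Because these are bulk libraries, fewer cells of a type and less RNA per cell cannot be told apart in any of these results.

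**Figure D2:**
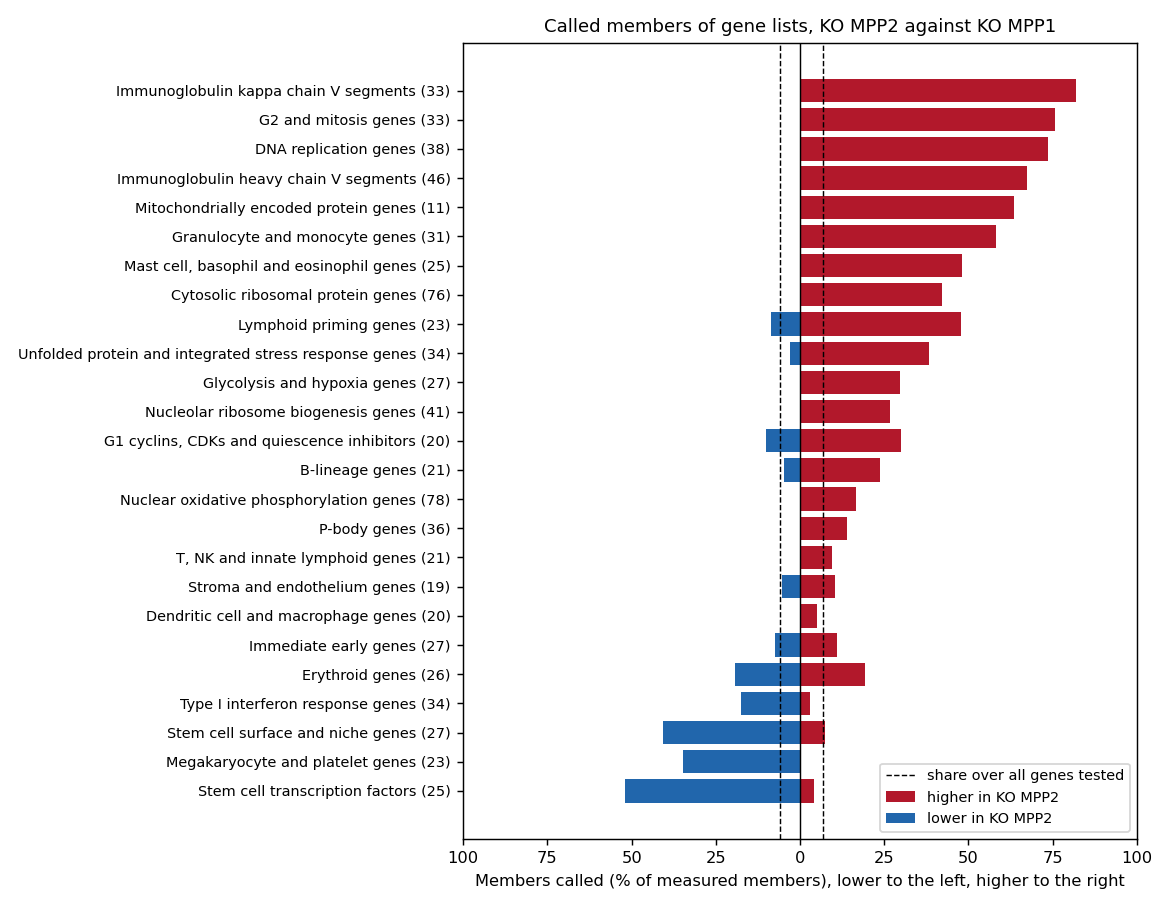
Share of the measured members of 25 gene lists called higher (right) or lower (left) in KO MPP2 than in KO MPP1, in percent, with the number of measured members in parentheses. Dashed lines mark the shares over all genes tested, 6.85% higher and 5.82% lower. Kappa V segments lead on the right, and stem cell transcription factors have the longest bar on the left.

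Granulocyte and monocyte genes were higher in KO MPP2. Of 31 measured members 18 were called higher (14 of 30 with background subtracted) and 0 lower, with a median of 1.71, and the summed level of the list was 4190 to 4342 CPM in KO MPP2 and 668 to 726 CPM in KO MPP1. Elane, the neutrophil elastase, had 222, 175 and 173 CPM in KO MPP2 and 0.669, 1.15 and 2.63 CPM in KO MPP1 (log2 6.94 ± 0.44 SE, edgeR adjusted p = 3.4e-16). Ctsg, the granule protease cathepsin G, averaged 99.8 ± 11.3 CPM in KO MPP2 and 0.291 ± 0.292 CPM in KO MPP1 (SD, n = 3 each). F13a1, the A chain of coagulation factor XIII that monocytes make, had 524, 514 and 565 CPM in KO MPP2 and 21.1, 31.6 and 36.8 CPM in KO MPP1 (log2 4.15 ± 0.20 SE). No KO MPP1 library reached any KO MPP2 library for these genes. The receptors of the colony-stimulating factors were nearer to each other, with Csf1r at 47.2 ± 1.93 CPM in KO MPP2 and 4.89 ± 4.49 CPM in KO MPP1, and Csf3r at 203 ± 1.28 CPM in KO MPP2 and 134 ± 8.86 CPM in KO MPP1. Prtn3, another granule protease, was called (log2 1.71 ± 0.51 SE, edgeR adjusted p = 0.0196) but not with background subtracted (edgeR adjusted p = 0.213).

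Mast cell, basophil and eosinophil genes rose in part. Of 25 measured members 12 were higher and 0 lower (median 1.37), and with background subtracted 7 of 23 were higher and 1 lower. Cpa3, a mast cell carboxypeptidase, had 109.8, 119 and 116 CPM in KO MPP2 and 17.7, 19.8 and 8.77 CPM in KO MPP1 (log2 2.90 ± 0.31 SE, edgeR adjusted p = 1.74e-09). Ms4a2, a chain of the high-affinity IgE receptor, had 22.5, 30.6 and 18.7 CPM in KO MPP2 and 0.334, 1.72 and 0 CPM in KO MPP1 (log2 5.02 ± 0.60 SE). Epx, the eosinophil peroxidase, had 64.8, 49.0 and 54.7 CPM in KO MPP2 and 1.67, 2.87 and 1.46 CPM in KO MPP1 (log2 4.78 ± 0.78 SE, edgeR adjusted p = 1.57e-05). The groups stood apart for all 3, and background was expected to give 62.3% of the Epx counts in KO MPP1. Defining basophil genes moved with them: Mcpt8 averaged 25.7 ± 5.93 CPM in KO MPP2 and 1.07 ± 1.18 CPM in KO MPP1, and Prss34 15.6 ± 7.44 CPM in KO MPP2 and 0.319 ± 0.335 CPM in KO MPP1. With background subtracted Prss34 was still called (edgeR adjusted p = 0.0073) and Mcpt8 was not (0.0632).

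**Figure D3:**
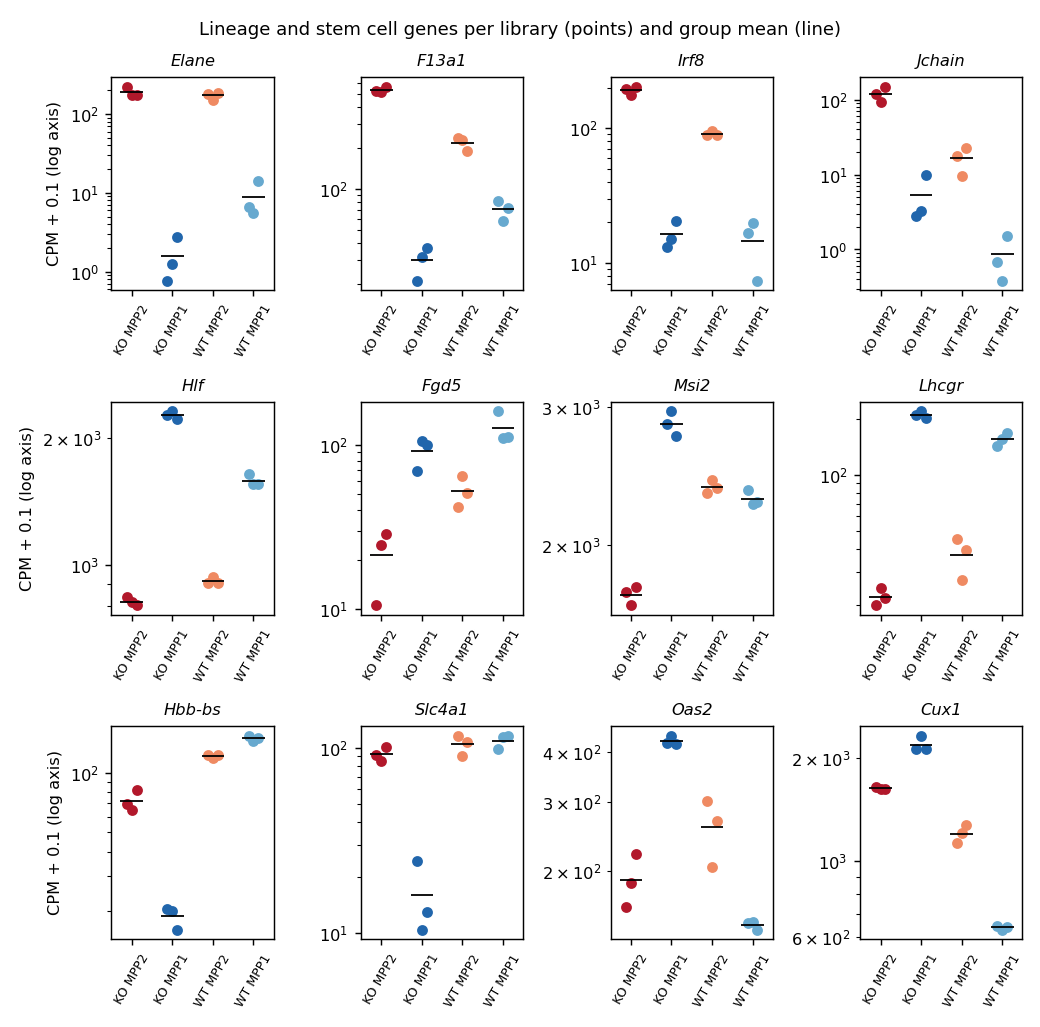
CPM plus 0.1 on a log axis for 12 genes described in the text, in KO MPP2, KO MPP1, WT MPP2 and WT MPP1, with points for single libraries and lines for means of 3. In each genotype the MPP2 points of Elane, F13a1, Irf8 and Jchain lie above the MPP1 points and those of Hlf, Fgd5 and Lhcgr below them, and Hbb-bs and Slc4a1 are lowest in KO MPP1.

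Immunoglobulin V segments gave the largest folds. V segments are spliced to the constant part only after a B-lineage cell has rearranged its locus. The deposited counts held 183 heavy chain and 160 kappa chain V segments, and only those that passed the count filter were measured. The filter admits a segment that is high in KO MPP2 alone. Few segments had many counts in KO MPP1, so few could be called lower, and the shares and medians are description only. Of 46 heavy chain V segments measured, 31 were higher in KO MPP2 and 0 lower, and of 33 kappa chain V segments 27 were higher and 0 lower. With background subtracted these counts were 22 of 44 and 17 of 32, and among genes of at least 20 CPM on average 14 and 8 segments were called higher. The median log2 fold change was 6.30 for heavy chain and 7.06 for kappa chain segments, or 5.80 and 4.27 when segments without counts in a group are set at the bound of 3 counts per library. V segments took 0.655 ± 0.0249% of all counts in KO MPP2 and 0.0263 ± 0.00172% in KO MPP1 (SD, n = 3 each).

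The most abundant segment was Ighv7-1, with 1744.5, 1558.8 and 1640 CPM in KO MPP2 and 137, 167 and 139 CPM in KO MPP1. Ighv3-5 had 725, 692 and 710.0 CPM in KO MPP2 and 1.00, 1.15 and 0.877 CPM in KO MPP1 (log2 9.40 ± 0.34 SE, edgeR adjusted p = 6.59e-24). Ighv5-16 had 512, 479 and 461 CPM in KO MPP2 and 1.00, 0.287 and 0.292 CPM in KO MPP1 (log2 9.79 ± 0.36 SE, edgeR adjusted p = 1.65e-24). Each of these separated the groups without overlap. Segments without any count in KO MPP1 included Ighv1-15, at least 105-fold higher in KO MPP2, Ighv8-8, at least 81.3-fold higher, and Igkv16-104, at least 87.6-fold higher, each against a floor of 3 counts per library. Ighv3-6, with few counts in KO MPP1, was 713-fold higher in KO MPP2 (95% counting interval 197 to 5900), an interval that covers counting error only. V segments form families of near-identical genes, so the division of reads among them is uncertain.

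The same segments were abundant in each KO MPP2 library. At least 50 counts in at least 1 library of the group were reached by 40 segments in KO MPP2, 4 in KO MPP1, 8 in WT MPP2 and 0 in WT MPP1. Of the 40, 38 stayed within 3-fold and 26 within 1.5-fold across the 3 libraries. All 4 segments of KO MPP1 were among the 40 (10% of them). Of the 8 in WT MPP2, 6 were among the 40 (75% of the 8 and 15% of the 40). The 3 KO MPP2 libraries still differed from each other beyond sampling noise, with chi-square values per gene of 7.51 to 9.08 over all genes and 5.3 to 5.87 over V segments. The labels do not say whether these libraries share a mouse.

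**Figure D4:**
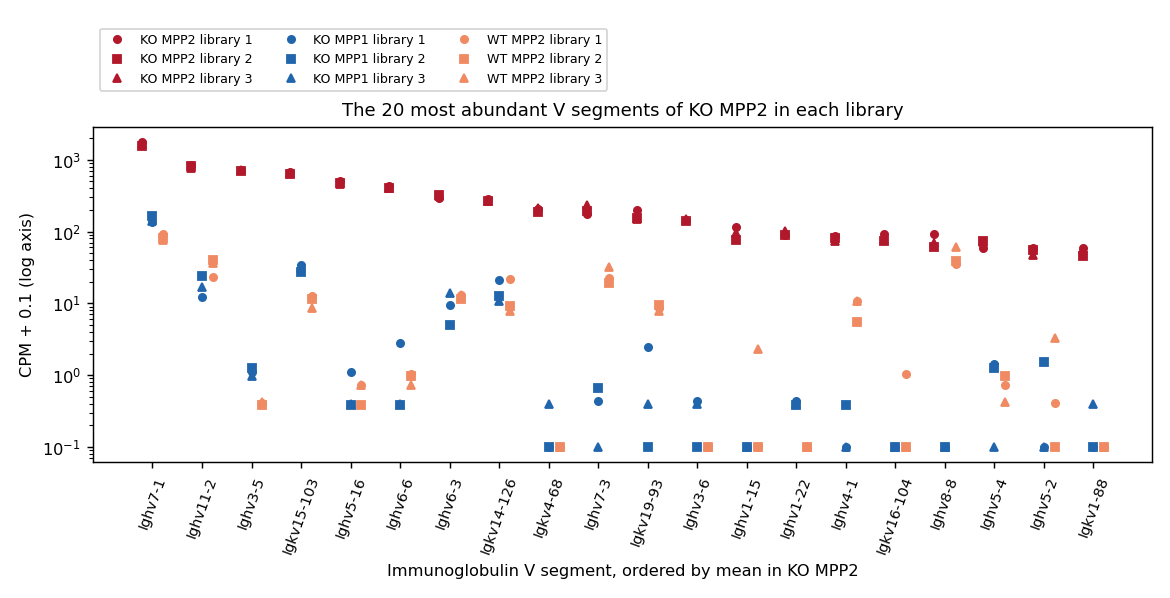
CPM plus 0.1 on a log axis for the 20 V segments most abundant in KO MPP2, ordered by their mean there, in the 3 libraries each of KO MPP2, KO MPP1 and WT MPP2. The KO MPP2 points of a segment lie close together, and Ighv3-5 and Ighv5-16 are near 1 CPM or lower in the other groups shown. MPP4 libraries are not shown.

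Other B-lineage genes moved less. Of 21 measured members 5 were higher in KO MPP2 and 1 lower, and with background subtracted 2 of 20 were higher and 1 lower. Jchain, which links IgM units, had 117, 94.0 and 148 CPM in KO MPP2 and 2.67, 3.16 and 9.65 CPM in KO MPP1 (log2 4.51 ± 0.46 SE, edgeR adjusted p = 5.33e-10). Pou2af1, a B cell coactivator, had 62.8, 35.8 and 80.6 CPM in KO MPP2 and 5.35, 6.89 and 11.1 CPM in KO MPP1 (log2 2.93 ± 0.47 SE). These 2 were the rises still called after subtraction. Cd79a, a signalling chain of the B cell receptor (12.1 ± 1.66 CPM in KO MPP2, 1.85 ± 0.909 CPM in KO MPP1), Pou2f2 and Cd74 were called only without subtraction, and each lost the call when KO MPP1 library 2 was left out (edgeR adjusted p = 0.0535 for Cd79a, 0.0503 for Pou2f2 and 0.113 for Cd74). Cd79a also lost it without KO MPP1 library 3 (0.0912) and Cd74 without KO MPP1 library 1 (0.0704). With background subtracted the log2 fold changes of Cd79a, Cd74 and Pou2f2 were 3.02, 1.26 and 0.76, against 2.68, 1.37 and 0.83 as fitted, and their adjusted p-values from edgeR were 0.152, 0.175 and 0.129. Without KO MPP1 library 2 only 2 members of the list were higher. Ebf1 and Pax5, the factors that commit cells to the B lineage, averaged 54.3 ± 7.99 and 19.4 ± 9.11 CPM in KO MPP2 and 63.9 ± 19.1 and 25.4 ± 4.001 CPM in KO MPP1, and neither passed the test. Foxo1, a factor needed for B cell development, was the member called lower (log2 -0.59 ± 0.19 SE, edgeR adjusted p = 0.0309), a call lost without any one of KO MPP2 library 2 (edgeR adjusted p = 0.18) and KO MPP1 libraries 1, 2 and 3 (0.0627, 0.0698 and 0.0883).

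Lymphoid priming genes were higher in larger number, 11 of 23 against 2 lower (median 0.549), or 7 of 22 and 3 lower with background subtracted. Irf8, a factor of lymphoid, dendritic and monocyte precursors, had 195, 177 and 203 CPM in KO MPP2 and 13, 14.9 and 20.5 CPM in KO MPP1 (log2 3.56 ± 0.34 SE, edgeR adjusted p = 7.01e-11). Dntt, the terminal transferase of V(D)J recombination, averaged 417 ± 8.56 CPM in KO MPP2 and 123 ± 21.4 CPM in KO MPP1 (log2 1.76 ± 0.20 SE, edgeR adjusted p = 4.39e-09). Il7r, the interleukin receptor of lymphoid precursors, averaged 108 ± 21.0 CPM in KO MPP2 and 42.8 ± 5.01 CPM in KO MPP1. Its call was lost with background subtracted (edgeR adjusted p = 0.095). The 2 that fell were Bcl11a, a lymphoid and globin-switch repressor (log2 -0.62 ± 0.09 SE), and Lsp1, a leukocyte actin-binding protein (log2 -0.47 ± 0.14 SE), the second of which missed the threshold without KO MPP2 library 3 (edgeR adjusted p = 0.0951) or KO MPP1 library 3 (0.0968).

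Stem cell transcription factors were lower in KO MPP2, 13 of 25 measured against 1 higher, with a median of -0.812. With background subtracted the counts were 15 lower and 1 higher. Hlf, a leucine zipper factor of stem cells, had 838, 814 and 803 CPM in KO MPP2 and 2265, 2309 and 2217 CPM in KO MPP1 (log2 -1.47 ± 0.06 SE, edgeR adjusted p = 3e-22). Mecom, the zinc finger factor Evi1, had 1514, 1638 and 1615 CPM in KO MPP2 and 3179.6, 2998 and 2876 CPM in KO MPP1 (log2 -0.93 ± 0.06 SE). Msi2, an RNA-binding regulator of stem cell renewal, had 1740.2, 1675 and 1768 CPM in KO MPP2 and 2858, 2963 and 2754 CPM in KO MPP1 (log2 -0.73 ± 0.05 SE). In all 3 the groups stood apart. The member called higher was Runx1, a factor needed to form blood stem cells, with 2552, 2469 and 2556 CPM in KO MPP2 and 1478, 1479 and 1598 CPM in KO MPP1 (log2 0.73 ± 0.05 SE, edgeR adjusted p = 4.96e-15).

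Stem cell surface and niche genes were lower for 11 of 27 and higher for 2 (median -0.876, or -0.901 with genes without counts at their bound). Fgd5, a stem cell guanine nucleotide exchange factor, had 10.5, 24.5 and 28.5 CPM in KO MPP2 and 69.2, 106 and 99.7 CPM in KO MPP1 (log2 -2.11 ± 0.25 SE). Ifitm1, an interferon-induced membrane protein, had 51.2, 40.9 and 56.6 CPM in KO MPP2 and 140.1, 140.4 and 135 CPM in KO MPP1 (log2 -1.48 ± 0.17 SE). The 2 members called higher were Cd34 and Cxcr4, the homing receptor for Cxcl12, at 216, 233 and 191 CPM in KO MPP2 and 100.9, 91.6 and 81 CPM in KO MPP1 (log2 1.23 ± 0.16 SE, edgeR adjusted p = 1.8e-07). Megakaryocyte and platelet genes were lower for 8 of 23 and higher for 0, and with background subtracted for 5 of 21. The count fell to 5 without KO MPP2 library 1, to 5 without KO MPP1 library 2 and to 4 without KO MPP1 library 3. They included Nfe2, a factor of platelet formation (log2 -0.56 ± 0.13 SE, edgeR adjusted p = 0.00314), and Zfpm1, the Gata1 partner Fog1 (log2 -0.57 ± 0.13 SE, edgeR adjusted p = 0.00159). The platelet chemokine Pf4 was at 0 CPM in all KO MPP2 libraries and at 0 to 0.287 CPM in KO MPP1, and Gp9, a platelet glycoprotein, was too low to be tested. Other megakaryocyte markers stood higher. Vwf averaged 22.1 ± 7.92 CPM in KO MPP2 and 35.6 ± 1.08 CPM in KO MPP1, and Itga2b 12.4 ± 14.1 CPM in KO MPP2 and 7.72 ± 3.48 CPM in KO MPP1.

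Erythroid genes split, with 5 of 26 measured higher and 5 lower (3 lower without KO MPP2 library 3, and 3 higher and 1 lower among genes of at least 20 CPM on average). The rises were Hba-a1, Hba-a2, Hbb-bs, Slc4a1 and Tfrc. Hbb-bs, an adult beta globin, had 69.8, 65.1 and 81.7 CPM in KO MPP2 and 20.4, 20.1 and 16.1 CPM in KO MPP1 (log2 1.94 ± 0.18 SE, edgeR adjusted p = 6.68e-11). Slc4a1, the anion exchanger of the red cell membrane, had 91.9, 85.3 and 102 CPM in KO MPP2 and 24.4, 10.3 and 12.9 CPM in KO MPP1 (log2 2.56 ± 0.22 SE). Globins took 0.0103 ± 0.00102% of counts in KO MPP2 and 0.00319 ± 0.000259% in KO MPP1, and reads of the paired alpha and beta globin genes may be divided among copies. The falls were Aqp1, Car1, Car2, Rhag and Ermap. Car1, a carbonic anhydrase, had 3.10, 2.58 and 6.75 CPM in KO MPP2 and 22.4, 20.4 and 15.2 CPM in KO MPP1 (log2 -2.23 ± 0.27 SE, edgeR adjusted p = 4.28e-08), and background was expected to give 84.3% of these counts in KO MPP2 and 24% in KO MPP1. Car2, a related anhydrase, had 17.5, 13.5 and 24 CPM in KO MPP2 and 88.9, 70.9 and 72.5 CPM in KO MPP1 (log2 -2.08 ± 0.20 SE). Both carbonic anhydrases separated the groups. Ermap, a red cell adhesion protein, was called (log2 -1.13 ± 0.32 SE, edgeR adjusted p = 0.0118), but not without KO MPP2 library 1 (edgeR adjusted p = 0.0679) or 3 (0.0982). Rhag, an ammonia channel, was called too (edgeR adjusted p = 0.0268), but not without KO MPP2 library 2 (0.13), KO MPP2 library 3 (0.0816), KO MPP1 library 1 (0.0635) or KO MPP1 library 3 (0.154). With background subtracted Rhag missed the threshold (0.0711). Klf1, the master factor of red cell genes, had 1.01 ± 1.08 CPM in KO MPP2 and 3.55 ± 2.15 CPM in KO MPP1 and was not called.

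Genes that copy DNA and divide cells gave many rises in KO MPP2. Among DNA replication genes 28 of 38 were higher and 0 lower (median 1.04), and 18 of 37 were higher with background subtracted. Mcm5, a subunit of the replicative helicase, had 299, 287 and 219 CPM in KO MPP2 and 126, 127 and 128 CPM in KO MPP1 (log2 1.08 ± 0.14 SE, edgeR adjusted p = 7.36e-08). Pola1, the catalytic subunit of the priming polymerase, had 412, 405 and 421 CPM in KO MPP2 and 201, 166 and 205 CPM in KO MPP1 (log2 1.11 ± 0.10 SE). Prim2, a primase subunit, was higher as well (log2 1.20 ± 0.16 SE). Among genes of G2 and mitosis 25 of 33 were higher and 0 lower (median 1.21), or 21 with background subtracted. Mki67, the antigen of cycling cells, had 1284, 1319 and 1324 CPM in KO MPP2 and 555, 554 and 591 CPM in KO MPP1 (log2 1.21 ± 0.07 SE, edgeR adjusted p = 2.13e-18). Top2a, the topoisomerase of dividing cells (log2 1.23 ± 0.14 SE), and Kif11, a spindle motor (log2 1.61 ± 0.16 SE), rose as well.

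The regulators of the G1 phase were mixed, with 6 of 20 higher and 2 lower, against 2 of 19 higher and 1 lower with background subtracted. Cdk6, a kinase that drives exit from quiescence, had 2606, 2669.7 and 2658 CPM in KO MPP2 and 1032, 1096 and 1038 CPM in KO MPP1 (log2 1.32 ± 0.06 SE, edgeR adjusted p = 1.11e-21). Rbl1, an inhibitory pocket protein, was higher (log2 1.06 ± 0.16 SE). Ccnd3, a D-type cyclin, was lower, with 523, 475 and 505 CPM in KO MPP2 and 814, 859.7 and 884 CPM in KO MPP1 (log2 -0.77 ± 0.10 SE, edgeR adjusted p = 2.97e-07). Cdkn1a, the inhibitor p21, was called (edgeR adjusted p = 0.0165), but missed the threshold with background subtracted (0.259, with a log2 fold change of 2.87 against 2.55 as fitted), without KO MPP1 library 1 (0.0709) and without KO MPP1 library 3 (0.0763). The list had 3 rises without KO MPP2 library 2, 3 without KO MPP1 library 1 and 2 without KO MPP1 library 3. Cdkn1c, the inhibitor p57, had 0, 0.322 and 0 CPM in KO MPP2 and 1.34, 2.30 and 4.68 CPM in KO MPP1. Its call (edgeR adjusted p = 0.0375) was lost without KO MPP2 library 1 (0.119) or 3 (0.122) and without KO MPP1 library 2 (0.0538) or 3 (0.131). With background subtracted Cdkn1c missed the threshold (edgeR adjusted p = 0.053), with the direction kept.

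Genes of protein synthesis and energy metabolism showed smaller rises. Cytosolic ribosomal protein genes were higher for 32 of 76 and lower for 0 (median 0.599), and with background subtracted for 13 of 72. The count was 21 without KO MPP2 library 3, 19 without KO MPP1 library 2 and 20 without KO MPP1 library 3. Rpl4, of the large subunit, had 434, 392 and 451 CPM in KO MPP2 and 226, 221 and 227 CPM in KO MPP1 (log2 0.92 ± 0.11 SE, edgeR adjusted p = 1.37e-08). Rpsa and Rps3 of the small subunit gave log2 0.79 ± 0.10 SE and 0.73 ± 0.10 SE. Of nucleolar ribosome biogenesis genes 11 of 41 were higher (4 with background subtracted, 7 with upper-quartile scaling and 6 without KO MPP1 library 2) and 0 lower. Npm1, nucleophosmin, had 1218, 1149 and 1123 CPM in KO MPP2 and 711, 694 and 633 CPM in KO MPP1 (log2 0.78 ± 0.07 SE, edgeR adjusted p = 9.13e-12). Ncl, nucleolin (log2 0.55 ± 0.10 SE), and Nolc1, a nucleolar chaperone (log2 1.07 ± 0.20 SE), were higher too.

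Mitochondrially encoded protein genes were higher for 7 of 11 and lower for 0 (median 0.74), the same number as with background subtracted. The mitochondrial share of counts was 2.06 ± 0.0404% in KO MPP2 and 1.42 ± 0.0975% in KO MPP1. Cytochrome oxidase subunit mt-Co1 had 4043, 3959 and 4059 CPM in KO MPP2 and 2614, 2418 and 2462 CPM in KO MPP1 (log2 0.69 ± 0.06 SE, edgeR adjusted p = 1.27e-11). Complex I genes mt-Nd1 and mt-Nd5 gave log2 1.16 ± 0.11 SE and 0.74 ± 0.07 SE. Nuclear genes of oxidative phosphorylation were called higher for 13 of 78 and lower for 0 (median 0.422). That count was 6 of 76 with background subtracted, 8 with upper-quartile scaling, 7 without a filter, 7 without KO MPP2 library 2, 8 without KO MPP2 library 3 and 7 without KO MPP1 library 2 or 3. The clearest were Sdhc of complex II (log2 0.63 ± 0.12 SE), Ndufa4 (log2 1.80 ± 0.39 SE) and Atp5a1 of the ATP synthase (log2 0.86 ± 0.19 SE). Glycolysis and hypoxia genes were higher for 8 of 27 and lower for 0, or 5 and 1 with background subtracted. Gapdh, a glycolytic dehydrogenase, had 632, 581 and 712 CPM in KO MPP2 and 346, 357 and 357 CPM in KO MPP1 (log2 0.86 ± 0.09 SE, edgeR adjusted p = 2.96e-09). Gpi1 (log2 0.87 ± 0.10 SE) and Tpi1 (log2 0.95 ± 0.22 SE), both glycolytic isomerases, rose with it.

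Genes of the unfolded protein and integrated stress responses were higher for 13 of 34 and lower for 1 (median 0.662), or 10 and 0 with background subtracted. Calr, the endoplasmic reticulum chaperone calreticulin, had 1231, 1245 and 1098 CPM in KO MPP2 and 415, 455 and 443 CPM in KO MPP1 (log2 1.44 ± 0.08 SE, edgeR adjusted p = 7.05e-18). Xbp1, the factor that drives secretory capacity, had 127, 149 and 150.3 CPM in KO MPP2 and 43.1, 60.6 and 64.6 CPM in KO MPP1 (log2 1.34 ± 0.20 SE). Pdia4, a disulfide isomerase, was higher as well (log2 1.499 ± 0.20 SE). The member called lower was Trib3, a stress-induced pseudokinase, at 5.04, 2.25 and 2.25 CPM in KO MPP2 and 20.7, 14.6 and 18.7 CPM in KO MPP1 (edgeR adjusted p = 0.00586, and 0.073 with background subtracted).

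Type I interferon response genes were lower for 6 of 34 and higher for 1 (median -0.457), with the same counts after background subtraction and 11 lower among genes of at least 20 CPM on average. Oas2, a sensor of double-stranded RNA, had 161, 186 and 220.4 CPM in KO MPP2 and 423, 440.4 and 421 CPM in KO MPP1 (log2 -1.18 ± 0.16 SE, edgeR adjusted p = 4.14e-07). Oasl2, a relative of it, had 144, 105 and 157 CPM in KO MPP2 and 303, 283 and 260.1 CPM in KO MPP1 (log2 -1.06 ± 0.15 SE). Ifi44 was lower too (log2 -1.39 ± 0.31 SE). Ly6e, a membrane protein induced by interferon, was the member called higher, with 720.4, 850.3 and 737 CPM in KO MPP2 and 398, 347 and 369.8 CPM in KO MPP1 (log2 1.05 ± 0.09 SE, edgeR adjusted p = 5.26e-12). The groups did not overlap for any of these 4 genes.

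P-body genes were higher for 5 of 36 (13.9%) and lower for 0 (median 0.141), against 6.85% and 5.82% over all genes tested. The rises numbered 2 to 3 without KO MPP2 library 3 or any 1 of the KO MPP1 libraries. With background subtracted 2 were higher and 1 lower, and among genes of at least 20 CPM on average 3 were higher and 5 lower. That filter also moved all genes towards falls (11.8% higher and 16.8% lower), and nothing particular to P-body genes is read from it. In WT 11 of the 36 P-body genes were higher in MPP2 and 0 lower, and the interaction was positive for 0 and negative for 4. Over all genes tested 10.4% were higher and 5.17% lower in WT, and 1.02% had a positive and 3.05% a negative interaction. Eif4e, the cap-binding protein, had 274, 228 and 219.7 CPM in KO MPP2 and 137, 138 and 160.2 CPM in KO MPP1 (log2 0.73 ± 0.12 SE, edgeR adjusted p = 1.48e-05). Cnot1, the scaffold of the deadenylase complex, had 598, 665 and 633 CPM in KO MPP2 and 456, 468 and 455 CPM in KO MPP1 (log2 0.46 ± 0.08 SE). Lsm3, of the decapping-associated ring, missed the threshold without KO MPP1 library 1 (edgeR adjusted p = 0.0719) or 2 (0.0521). Pan3, a deadenylase subunit (edgeR adjusted p = 0.04), missed it without any library except KO MPP2 library 1, and Patl1, a decapping scaffold (edgeR adjusted p = 0.0493), without any library except KO MPP1 library 2. The adjusted p-values in these fits were 0.0528 to 0.241 for Pan3 and 0.0562 to 0.235 for Patl1. Immediate early genes were higher for 3 of 27 and lower for 2, or 0 and 2 with background subtracted, and 0 were higher without KO MPP2 library 2. Fosb, an AP-1 subunit, had 76.8, 74.1 and 58.5 CPM in KO MPP2 and 108, 89.8 and 120.1 CPM in KO MPP1 (log2 -0.60 ± 0.14 SE, edgeR adjusted p = 0.00163). The call of Jun, an AP-1 subunit, ended without KO MPP2 library 2 (edgeR adjusted p = 0.184), and that of Myc, a growth regulator, without any library except KO MPP2 library 3 (0.052 to 0.13). The calls of Fosl2, a further AP-1 subunit, and Dusp1, a phosphatase of MAP kinases, each ended without KO MPP2 library 1 (0.0979 for both) or 2 (0.103 for both). That of Fosl2 also ended without KO MPP1 library 2 (0.117) or 3 (0.111), and that of Dusp1 without KO MPP1 library 1 (0.0555).

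Markers of further cell types gave few calls, and their levels varied. T, NK and innate lymphoid genes were higher for 2 of 21 and lower for 0, namely Zbtb16, a zinc finger factor of innate lymphoid precursors (log2 1.60 ± 0.21 SE, edgeR adjusted p = 2.2e-07), and Gzmb, a cytotoxic protease with 2.33, 7.09 and 11.6 CPM in KO MPP2 and 0.334, 0 and 0 CPM in KO MPP1. The call of Gzmb ended without KO MPP2 library 3 (edgeR adjusted p = 0.0622) or KO MPP1 library 2 (0.0771) or 3 (0.076), and with background subtracted (0.122). The summed level of that list was 474 to 527 CPM in KO MPP2 and 307 to 358 CPM in KO MPP1, while the T cell gene Cd3e was at 0 to 1.87 CPM in KO MPP2 and 0.877 to 1.67 CPM in KO MPP1. Dendritic cell and macrophage genes were higher for 1 of 20, Ccr2, a monocyte chemokine receptor (edgeR adjusted p = 0.0196), and for 0 with background subtracted or without KO MPP2 library 1 or KO MPP1 library 1. Their sums overlapped, at 665 to 839 CPM in KO MPP2 and 712 to 781 CPM in KO MPP1, and Siglech was at 0 to 0.776 CPM in KO MPP2 and 0.669 to 1.17 CPM in KO MPP1. Stroma and endothelium genes were higher for 2 of 19 (Pecam1, an adhesion molecule that progenitors also carry, and Pdgfrb) and lower for 1 (Cxcl12). Their sums were 895 to 1027 CPM in KO MPP2 and 458 to 650 CPM in KO MPP1, of which Pecam1 alone averaged 712 and 298 CPM. The median log2 fold change of the stroma and endothelium list was -0.649. Over all genes tested 6.85% were higher and 5.82% lower, which the counts of these 3 lists stand beside. Col1a1, a defining stromal gene, was at 0 to 0.776 CPM in KO MPP2 and 0.287 to 0.669 CPM in KO MPP1. The part of such cells in the results above was not tested.

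Among the 12 largest falls, Lhcgr and Trpc6 had the highest levels in KO MPP1. Lhcgr, the receptor of luteinizing hormone, had 19.8, 24.5 and 21.7 CPM in KO MPP2 and 212, 220.2 and 203 CPM in KO MPP1 (log2 -3.26 ± 0.16 SE, edgeR adjusted p = 1.03e-19). Trpc6, a cation channel, had 17.8, 10.3 and 7.12 CPM in KO MPP2 and 166, 114 and 144 CPM in KO MPP1 (log2 -3.59 ± 0.20 SE, edgeR adjusted p = 2.13e-18). Background was expected to give 27.8% of the Lhcgr counts in KO MPP2 and 3.89% in KO MPP1, and 95.8% of the Trpc6 counts in KO MPP2 and 10.7% in KO MPP1. Cxcl12, the chemokine ligand of Cxcr4, had 0, 0.644 and 0.75 CPM in KO MPP2 and 11.7, 17.8 and 12 CPM in KO MPP1 (log2 -4.76 ± 1.06 SE, edgeR adjusted p = 0.00145). The other 9 were Syt3, Clip3, Aqp1, Nrk, Klk8, Pax7, Mid2, Exd1 and Muc5ac, and no library of KO MPP2 exceeded 4.27 CPM in any of them. For these 9 the expected background was 6.56 to 61.6% of the counts in KO MPP1 and 60.7 to 468% in KO MPP2. For Cxcl12 it was 10% in KO MPP1 and 218% in KO MPP2. Where the expected background exceeds the counts found, an even background over genes is too high an estimate. With background subtracted Exd1, Mid2 and Muc5ac missed the threshold (edgeR adjusted p = 0.0586, 0.0788 and 0.0721), with the direction kept. Klk8, a serine protease, had 1.67, 23.3 and 4.97 CPM in KO MPP1 and lost its call (edgeR adjusted p = 0.0117) without KO MPP1 library 2 (0.258) or KO MPP2 library 1 (0.0555).

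The same contrast was made in WT libraries, and its calls are set beside those of KO. Expected background was 11.48 ± 0.186% of counts in WT MPP2 and 24.08 ± 0.995% in WT MPP1 (SD, n = 3 each). In KO MPP2 and KO MPP1 it was 9.31% and 13.8%, so the WT pair lay further apart. The part of background in the comparison of KO with WT was not tested beyond its subtraction. WT MPP2 had 2287 genes higher (10.4%) and 1135 lower (5.17%) than WT MPP1. Of the genes called in KO, 929 were also higher in WT (61.8% of the KO rises and 40.6% of the WT rises) and 393 also lower (30.7% of the KO falls and 34.6% of the WT falls). Opposite calls were made for 17 genes higher in KO MPP2 and 52 lower in KO MPP2. The interaction, which tests whether the MPP2 to MPP1 difference is the same in both genotypes, was called for 224 genes with a more positive difference in KO (1.02%) and 670 with a more negative one (3.05%). With background subtracted these counts were 139 and 260.

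**Figure D5:**
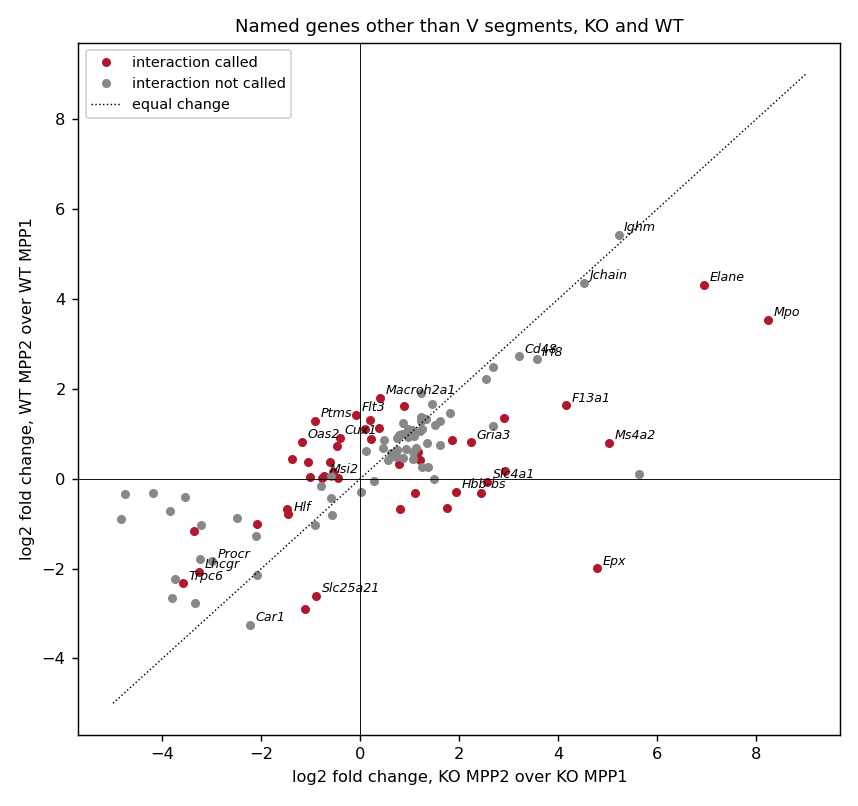
Log2 fold changes of the 114 named genes that are not V segments, KO MPP2 over KO MPP1 on the horizontal axis and WT MPP2 over WT MPP1 on the vertical axis. Red points are the 45 genes with a called interaction, grey points the rest, and the dotted line marks equal change. Some genes were named for a small interaction p-value, so the share of red points does not describe all genes. Mpo, Elane and F13a1 lie to the right of the line, Flt3, Cux1 and Ptms to its left, and Ighm and Jchain near it.

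Some myeloid genes differed more in KO. Mpo had an interaction of 4.71 (edgeR adjusted p = 3.4e-20). It averaged 1574 ± 34.5 CPM in KO MPP2 and 1526 ± 50.1 CPM in WT MPP2, and stood at 5.14 ± 0.829 CPM in KO MPP1 against 132 ± 19.5 CPM in WT MPP1. F13a1 (2.52), Elane (2.63), Epx (6.78) and Ms4a2 (4.23) had positive interactions too, and Epx had 3.74, 2.02 and 1.59 CPM in WT MPP2 and 8.82, 8.84 and 12 CPM in WT MPP1. Of the granulocyte and monocyte list 6 of 31 members had a called positive interaction and 0 a negative one, and of the mast cell list 7 of 25 and 0. The granulocyte and monocyte list had 18 rises in KO and 18 in WT, with median log2 fold changes of 1.71 in KO and 1.58 in WT and a median interaction of 0.217. The mast cell list had 12 rises and 0 falls in KO, against 4 rises and 3 falls in WT.

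Erythroid genes had 11 of 26 members with a positive interaction and 1, Car2, with a negative one. In WT 18 members were lower in MPP2 and 0 higher. Hbb-bs stood at 122, 119 and 123 CPM in WT MPP2 and 153, 145 and 150 CPM in WT MPP1 (interaction 2.23 ± 0.25 SE, edgeR adjusted p = 1.7e-08), so KO MPP1 was the lowest of these 4 groups. Slc4a1 was alike in this, with 116, 90.4 and 107 CPM in WT MPP2 and 98.5, 115 and 116 CPM in WT MPP1 (interaction 2.63 ± 0.29 SE). Slc25a21, a mitochondrial carrier, was lower in MPP2 in both genotypes but less so in KO (log2 -0.90 in KO, -2.61 in WT, interaction 1.71 ± 0.19 SE). Background was expected to give 79.8% of its counts in KO MPP2 and 57.5% in KO MPP1, and the Slc25a21 interaction was not called with background subtracted (edgeR adjusted p = 0.271).

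Among other genes with a positive interaction were Gria3, a glutamate receptor subunit, Auts2, a chromatin-associated regulator, and Inpp4b, a phosphoinositide phosphatase. Gria3 had 1017, 922 and 915 CPM in KO MPP2 and 221, 189 and 200.2 CPM in KO MPP1 (log2 2.23 ± 0.10 SE in KO, 0.81 in WT). Inpp4b had 1483, 1556 and 1652 CPM in KO MPP2 and 754, 688 and 749 CPM in KO MPP1 (log2 1.10 ± 0.11 SE), whereas in WT it fell in MPP2 (log2 -0.32, edgeR adjusted p = 0.034). Auts2 rose in both genotypes, by log2 1.85 in KO and 0.86 in WT.

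Negative interactions were the more frequent. Flt3 was 1138 ± 52.3 CPM in WT MPP2 and 424 ± 20.1 CPM in WT MPP1, a rise that was not called in KO (interaction -1.51, edgeR adjusted p = 5.6e-09). Lymphoid priming genes followed, with 12 of 23 members negative and 0 positive. In WT 18 of the 23 were higher in MPP2. Dntt had 568 ± 16.0 CPM in WT MPP2 and 25.4 ± 6.96 CPM in WT MPP1 (interaction -2.72 ± 0.29 SE, edgeR adjusted p = 8.1e-09), and Il7r 73.7 ± 8.495 CPM in WT MPP2 and 4.30 ± 2.26 CPM in WT MPP1. The difference between KO MPP1 and WT MPP1 was not tested. Stem cell transcription factors had 12 of 25 negative and 0 positive. Msi2 was not called in WT (log2 0.05, edgeR adjusted p = 0.6) but was lower in KO MPP2 than in KO MPP1 (interaction -0.78 ± 0.07 SE).

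Further genes were named for the smallest interaction p-values on the negative side. Cux1, a homeobox factor, had 1646, 1618 and 1619 CPM in KO MPP2 and 2115, 2313 and 2119 CPM in KO MPP1 (log2 -0.42 ± 0.07 SE), but rose in WT MPP2 (log2 0.91; interaction -1.33 ± 0.09 SE, edgeR adjusted p = 1.6e-13). Ptms, parathymosin, fell in KO MPP2 (log2 -0.91 ± 0.14 SE) and rose in WT MPP2 (log2 1.29). Macroh2a1, a histone variant, rose in both genotypes, less so in KO (log2 0.40 in KO, 1.80 in WT), and with background subtracted its KO difference missed the threshold (edgeR adjusted p = 0.078). Rnf220, a ubiquitin ligase, and Laptm5, a lysosomal protein of blood cells, were not called in KO (log2 0.10 ± 0.06 SE and 0.19 ± 0.08 SE) and rose in WT MPP2 (log2 1.10 and 1.30). Gcnt2, a glycosyltransferase, fell in KO MPP2 (log2 -1.03 ± 0.08 SE) and gave log2 0.04 in WT (edgeR adjusted p = 0.78). Interferon genes had 7 of 34 members with a negative interaction and 0 with a positive one, and Oas2 fell in KO MPP2 and rose in WT MPP2 (interaction -1.999 ± 0.23 SE, edgeR adjusted p = 3.4e-08).

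V segments with a called interaction were nearly all more positive in KO. The count filter also admits segments high in KO MPP2 alone, so this direction is description only. Of heavy chain segments 8 of 46 had a positive interaction and 1 a negative one, and of kappa segments 5 of 33 and 0. Ighv3-5 and Ighv5-16, abundant in KO MPP2, reached at most 0.319 and 0.638 CPM in WT MPP2. Ighv11-2 was higher in MPP2 in both genotypes, with 844, 807 and 755 CPM in KO MPP2, 12, 23.8 and 17 CPM in KO MPP1, and 23.1, 40.0 and 36.7 CPM in WT MPP2. The negative one was Ighv7-1, where WT MPP1 had few counts (0.882, 0.285 and 1.40 CPM), and it was named after its values were seen. Ighm itself had an interaction of -0.21 (edgeR adjusted p = 0.65), with 947 ± 73.5 CPM in WT MPP2 and 22.04 ± 0.328 CPM in WT MPP1.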

How the data were processed

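RNA sequencing counts per gene were analysed as the authors deposited them, as whole numbers that were not normalized, for 56748 genes in 24 libraries. Libraries were made from total RNA with an unspecified strand setting. Per the submitters' processing notes, SAMtools 1.12 and DESeq2 were used with build mm39, and the aligner, the counter and its settings are not given in the sources used here. Totals were 2894916 to 3523747 counts in KO MPP2 and 3095384 to 3584413 in KO MPP1, and the number of counts limits precision for low genes.

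Counts were scaled by TMM and filtered with filterByExpr, leaving 21964 genes, and tested with edgeR 4.0.16 (R 4.3.3) by quasi-likelihood on all 24 libraries with 1 mean per group (16 residual degrees of freedom). Adjustment followed Benjamini-Hochberg, with calls below 0.05. The interaction contrast was the KO difference minus the WT difference. Background per kb of gene span was taken from 1474 olfactory and vomeronasal receptor genes, and spans were matched for 91.8% of IDs through a GRCm38 annotation used for names and lengths only. Alternatives were other scalings and filters, DESeq2 1.42.0, limma 3.58.1, fewer libraries, a replicate block, background subtraction and each library left out. In simulated counts for this comparison (21015 genes), 31 of 100 genes changed 3-fold and 4 of 100 changed 1.5-fold were called, and 3 of 38 calls were false.

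Named genes were Ddx6 and the markers, the largest rises and falls (up to 12 of each) among called genes averaging at least 5 CPM with no overlap, the members of each list with the smallest p in each direction, and the 8 genes with the smallest interaction p in each direction. Some genes that met these rules are not reported here. Defining markers of other cell types came from a separate list. The members and lists were chosen with earlier results of these data known.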

Additional observations from a re-analysis of the deposited data

Results flagged for a closer look

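For 54 of the 129 named genes the difference between MPP2 and MPP1 was itself different in KO and WT, by the interaction test of edgeR with adjusted p below 0.05. Each value below is that interaction, the KO log2 fold change minus the WT one. Some of the 129 genes were named for a small interaction p-value, so the count of 54 is description only. Over all genes tested 1.02% had a positive interaction and 3.05% a negative one. Among myeloid genes the interactions were 4.71 for Mpo, 2.63 for Elane, 2.52 for F13a1, 1.55 for Cpa3, 6.78 for Epx, 4.23 for Ms4a2 and 1.47 for Il1rl1. Red cell genes gave 2.41 for Hba-a1, 2.76 for Hba-a2, 2.23 for Hbb-bs, 2.63 for Slc4a1, 1.76 for Ermap and -1.07 for Car2.

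Lymphoid and B-lineage genes gave -1.51 for Flt3, -0.98 for Bcl11a, -1.20 for Lsp1 and 2.75 for Pou2af1. Stem cell and megakaryocyte genes gave -0.68 for Hlf, -0.78 for Msi2, -0.69 for Nfe2, -0.81 for Ifitm1 and -0.45 for Kit. Interferon genes gave -1.82 for Ifi44, -2 for Oas2 and -1.43 for Oasl2. Growth and metabolism genes gave -0.79 for Ccnd3, -0.74 for Myc, 0.79 for Prim2, 0.46 for Npm1, 0.57 for mt-Nd1, -0.75 for Gpi1 and -0.68 for Pan3.

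Further genes gave 0.99 for Auts2, 1.42 for Gria3, 1.42 for Inpp4b, 1.71 for Slc25a21, -1.33 for Cux1, -1.07 for Gcnt2, -1.12 for Laptm5, -1.40 for Macroh2a1, -2.20 for Ptms, -0.997 for Rnf220, -1.18 for Lhcgr, -1.27 for Trpc6 and -2.21 for Pax7. V segments gave 10.7 for Ighv1-15, 8.82 for Ighv3-5, 9.71 for Ighv5-16, 4.44 for Ighv7-3, 9.82 for Ighv9-3, 10.7 for Igkv4-57, 13.1 for Igkv4-68, 10.1 for Igkv4-80 and 13.8 for Igkv8-27. These V segment values are fitted against groups at or near 0 counts, so they depend on the fit and are no bounds.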

How the results depend on the processing

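With background subtracted, 662 genes were higher and 687 lower in KO MPP2, and 139 interactions were positive and 260 negative. A further 3 counts moved by over 1.5 times: 947 genes higher among those averaging at least 20 CPM, 790 lower with limma-voom, and 367 positive interactions with DESeq2. The causes were not tested, other than that the filter at 20 CPM left fewer genes. Leaving out 1 library gave 1081 to 1246 higher, 928 to 1044 lower, 161 to 209 positive and 464 to 589 negative interactions. The replicate block gave 1434 higher, 1228 lower, 202 positive and 654 negative interactions. Same-numbered libraries correlated at 0.014, 0.0069 and 0.0061 across genes in their deviations from the group means, and not every library correlated best with its own number. The main fit therefore used no pairing. Correlations this small cannot decide whether same-numbered libraries share an animal. From olfactory receptor genes alone the background share was 11.21% in KO MPP2 and 15.56% in KO MPP1. No called gene among those named reversed. The sign of some uncalled genes changed, such as Ddx6 (-0.04) and Rnf220 (-0.08) with background subtracted and Slamf1 (-0.03) with median-of-ratios scaling. Of 129 named genes, 20 lost their call with background subtracted, 8 with limma-voom, 7 with only the compared libraries (125 tested), 4 each with upper-quartile scaling, no filter and the 20 CPM filter (which tested 101 of the 129), 3 with median-of-ratios scaling and 2 each with DESeq2 and the block.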

Other observations

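Chromatin remodeller and histone methylation genes, which set how accessible DNA is, were higher in KO MPP2 for 11 of 47 measured members and lower for 3, by edgeR's quasi-likelihood test. With background subtracted 5 were higher and 6 lower. In WT 25 of the members were higher in MPP2 and 0 lower, and the interaction was positive for 1 and negative for 13. Cytokine receptor genes were higher in KO MPP2 for 11 of 50 and lower for 7 (6 and 5 with background subtracted), against 20 higher and 6 lower in WT, with 2 positive and 9 negative interactions. Bcl2 family genes, which govern cell survival, were higher for 2 of 12 and lower for 0 (1 and 0 with background subtracted). Their median log2 fold change was 0.261, with summed levels of 1702 to 1775 CPM in KO MPP2 and 733 to 786 CPM in KO MPP1. A sum follows its most abundant members and need not describe the list. Over all genes tested, 6.85% were higher and 5.82% lower in KO, 10.4% and 5.17% in WT, and 1.02% and 3.05% had a positive and a negative interaction.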
